A study of Mus musculus with 4 samples.

Results

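The metabotropic glutamate receptor genes measured here were Grm2, Grm3, Grm4, Grm5, Grm7 and Grm8, taken by gene symbol as 6 of the 31053 rows of a single-nucleus expression matrix of mouse superior colliculus. This midbrain region maps vision, touch and sound and directs orienting movements. Nuclei came from C57BL/6J mice, with no mutant allele or treatment given in the labels. The ages were embryonic day 19 (E19) and days 4, 8 and 21 after birth (P4, P8, P21). Each age was 1 library of tissue pooled from several animals, so every comparison of stages is a comparison of single libraries and carries no test. The authors' deposited annotation placed the 9724 nuclei in 9 classes and 35 subtypes, of which 13 were subtypes of excitatory neurons (EN1 to EN13) and 12 of inhibitory neurons (IN1 to IN12).

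Metabotropic glutamate receptors are G-protein-coupled receptors that sense glutamate on a slow time scale, beside the glutamate-gated ion channels. Group I receptors, here Grm5, couple through Gq proteins to phospholipase C, inositol trisphosphate and calcium release. Group II receptors (Grm2 and Grm3) and group III receptors (Grm4, Grm7 and Grm8) couple through Gi/o proteins, lower cyclic AMP and act in part on presynaptic terminals, where they limit transmitter release. Astrocytes are also known to carry Grm3 and, early in life, Grm5.

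All 6 genes lie on different parts of the mm10 genome, and most of their length is intron. In the GENCODE M21 annotation Grm5 spans chr7:87584168-88134907 on the plus strand (551 kb), Grm2 chr9:106643095-106656082 on the minus strand (13 kb) and Grm3 chr5:9485541-9725170 on the minus strand (239.6 kb). Grm4 spans chr17:27422387-27521403 on the minus strand (99.0 kb), Grm7 chr6:110645581-111567230 on the plus strand (922 kb) and Grm8 chr6:27275119-28135178 on the minus strand (860.1 kb). The reference used for counting held unspliced transcripts, so intronic reads entered the totals and long genes collected more of them. Annotated antisense genes within Grm2 and Grm7 were counted as genes of their own, with 2 and 436 UMIs in all against 502 and 210389 of Grm2 and Grm7. No source used here states the strand setting of the counting, and without strand the UMIs of a gene and its antisense partner cannot be told apart.

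Promoters of Grm3 and Grm7 are shown because these genes were both far lower in P21 than in P8 astrocytes and are the members of that set listed in the RefSeq promoter table (GRCm38.p6). The windows are the 250 bases before each transcript start, chr5:9725353-9725602 on the minus strand for Grm3 and, for the first of 2 listed starts of Grm7, chr6:110645262-110645511 on the plus strand. Capitals mark matches to the GC box GGGCGG, searched on both strands.
Grm3: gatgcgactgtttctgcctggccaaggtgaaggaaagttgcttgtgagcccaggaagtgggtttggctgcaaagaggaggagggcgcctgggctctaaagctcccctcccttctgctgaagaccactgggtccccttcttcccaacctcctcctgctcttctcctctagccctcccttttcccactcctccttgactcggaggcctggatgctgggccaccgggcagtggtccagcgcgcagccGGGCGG
Grm7: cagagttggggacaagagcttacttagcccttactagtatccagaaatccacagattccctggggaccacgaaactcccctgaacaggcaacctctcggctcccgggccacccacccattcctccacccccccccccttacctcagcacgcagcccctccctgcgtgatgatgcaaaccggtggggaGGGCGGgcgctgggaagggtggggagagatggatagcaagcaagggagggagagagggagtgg
Each window held 1 match, which lies at the very end of the Grm3 window, and the G and C content was 62.4% for Grm3 and 62.0% for Grm7. Of all 32851 listed promoter windows of the same length, 32.7% held a match. Grm2 and Grm8 were also listed, with 3 matches and 1 match.

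Depth differed between stages: the libraries held 2249 to 2585 nuclei and 19277512 to 31325079 unique molecular identifiers (UMIs, each counting 1 captured RNA molecule), and the median per nucleus was lowest at E19 (6828 UMIs) and highest at P21 (11745 UMIs). Of the nucleus barcodes, 9 occurred in more than 1 library (18 nuclei). Neurons carried the defining markers of their class: vesicular glutamate transporter genes summed to 179 to 286 CPM (UMIs scaled to a class total of 1000000) in excitatory neurons, and Gad1, Gad2 and Slc32a1 to 680.3 to 950.3 CPM in inhibitory neurons. Markers of cerebellar granule, dopaminergic, serotonergic and cholinergic neurons summed to at most 11.7 CPM in either neuron class. The thalamic neuron list (Tcf7l2 and Lef1) summed to 529.5 to 1292 CPM in excitatory neurons and 334.7 to 679 CPM in inhibitory neurons. Whether Tcf7l2 and Lef1 mark thalamic neurons in this tissue was not tested, nor was the part of the list in the results.

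Grm5 and Grm7 led in excitatory neurons, Grm3 led in astrocytes, and Grm2 gave few UMIs in every class. Per 100 kb of gene span, though not in CPM, Grm3 also led in E19 inhibitory neurons. In CPM per 100 kb the excitatory order at E19 was Grm5 (302), Grm7 (192), Grm3 (136), Grm4 (73.6), Grm8 (66.8) and Grm2 (53.4). At P21 it was Grm7 (272), Grm5 (257), Grm4 (81.7), Grm8 (71.5), Grm3 (56.2) and Grm2 (45.3), so that Grm3 had gone from the third to the fifth place. Grm8 and Grm2 at E19, Grm4 and Grm8 at P4, Grm4 and Grm3 at P8, and Grm3 and Grm2 at P21 had overlapping counting intervals in that class. These near ties depend on the division by span: in CPM Grm8 was at 574 and Grm2 at 6.9 in E19 excitatory neurons. In inhibitory neurons Grm3 led at E19 (219 CPM per 100 kb), ahead of Grm5 (202) and Grm7 (171). At that stage subtype IN1 had Grm5 (205) above Grm3 (161), while IN7 had Grm3 at 1211 and Grm5 at 125. At P21 the inhibitory order began with Grm5 (311) and Grm7 (277), with Grm3 at 131 and Grm8 at 127, whose intervals overlapped. In CPM the E19 inhibitory order was instead Grm7 (1575), Grm5 (1114), Grm8 (1010.5) and Grm3 (525). In astrocytes Grm3 was first in 4 of 4 libraries, from 334 to 893 CPM per 100 kb, and the next member never passed 222.

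**Figure D1:**
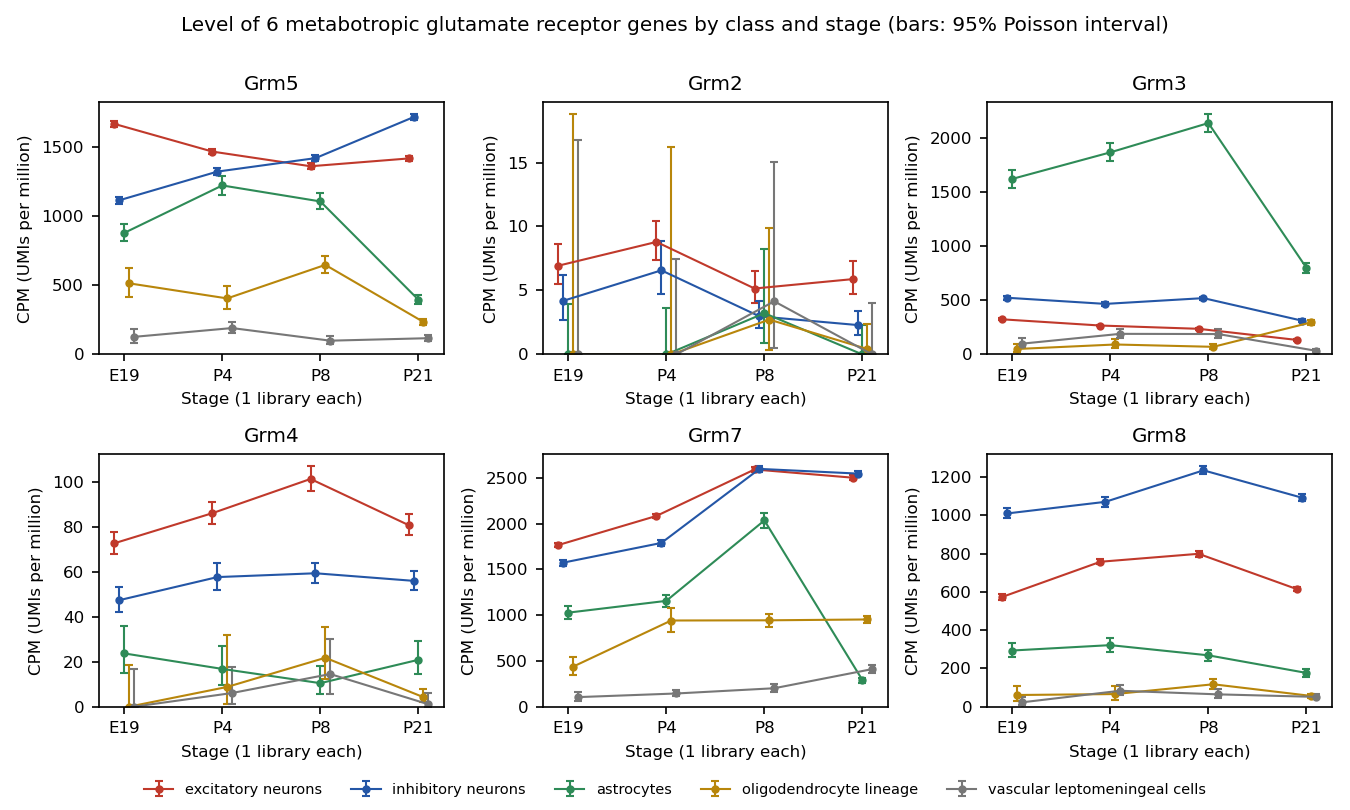
Level of each gene in CPM (vertical axes start at 0 and differ between panels) at E19, P4, P8 and P21 in 5 classes, with 95% Poisson intervals; each point is 1 library. Of these classes astrocytes have the highest Grm3 in every library, and their P21 points for Grm5, Grm3 and Grm7 (395, 801 and 289.7 CPM) lie well under their P8 points.

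Grm5, the group I member, was lower at P21 than at E19 in the sum of excitatory neurons and higher in that of inhibitory neurons, but the excitatory difference was not seen within most subtypes. In excitatory neurons its levels in the E19, P4, P8 and P21 libraries were 1666, 1465, 1359.6 and 1416 CPM. In inhibitory neurons it was 1114, 1321, 1418 and 1715 CPM at the same stages. The excitatory class was the higher at E19 and P4 and the inhibitory class at P8 and P21. From E19 to P21 the log2 ratio, taken throughout with 5 CPM added to both values, was −0.23 in excitatory neurons (95% counting interval −0.26 to −0.21) and 0.62 in inhibitory neurons (0.58 to 0.66). The excitatory value depended on the mixture of subtypes: with subtypes weighted alike it was −0.012, and 7 of 11 excitatory subtypes were higher at P21. Among inhibitory subtypes 10 of 12 were higher at P21, each beyond its counting interval, and the median within-subtype log2 ratio was 0.63 against 0.17 in excitatory subtypes.

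Some subtypes kept their place in the order of Grm5 levels. EN2 ranked first or second in 4 of 4 libraries, at 2940.4, 1879, 2052 and 2137 CPM from E19 to P21. EN5 was the lowest subtype at P4, P8 and P21 and the second lowest at E19, at 446, 553, 528 and 659 CPM. At P4 all 24 pairs of neighbours in the Grm5 order had overlapping intervals. IN3 was lower in earlier libraries (672, 1445 and 1709 CPM) than at P21, where its 2593 CPM ranked first. IN9 had the largest ratio, from 208 CPM at E19 to 1243 at P21 (log2 ratio 2.55), and EN9 the lowest, from 2002 to 865 CPM (−1.21).

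Of the group II receptors, Grm2 was barely detected. It held 80, 131, 68 and 86 UMIs in excitatory neurons from E19 to P21 (6.9, 8.8, 5.2 and 5.9 CPM) and 25, 42, 33 and 26 UMIs in inhibitory neurons (4.2, 6.6, 3.0 and 2.3 CPM). After each nucleus was thinned to 2300 UMIs, 0.78% to 2.5% of the neurons of a class and library had a Grm2 UMI, and 0 of the 36 to 139 vascular leptomeningeal nuclei of any library had one. These shares of 0 come from few nuclei and were not tested against the neuron shares. Before thinning, vascular leptomeningeal nuclei held 2 Grm2 UMIs at P8 (4.2 CPM) and 0 at E19, P4 and P21. The counting interval of that P8 value held both neuron values of P8, so the summed counts did not separate them there. Astrocytes held 4 Grm2 UMIs at P8 and none at the other stages. A count of 0 at P21 allows a level of up to 1.8 CPM (3 counts, counting error only). At this depth neighbours in the order of subtypes could not be told apart for Grm2, since every such pair had overlapping intervals.

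Grm3, the other group II member, was lower at P21 than at E19 in both neuron classes. In excitatory neurons it was 325, 268, 238 and 135 CPM from the E19 to the P21 library, lower at each successive stage. Inhibitory neurons held 525, 468, 521 and 314 CPM, with the low value at P21 alone. Its log2 ratio from E19 to P21 was −1.24 in excitatory neurons (−1.32 to −1.16) and −0.73 in inhibitory neurons (−0.80 to −0.66). The share of thinned excitatory nuclei with a UMI was 42.5% at E19 and 21.6% at P21, against 22.2% and 7.91% of vascular leptomeningeal nuclei. Grm3 in those vascular nuclei was 100, 191, 189 and 33.8 CPM from E19 to P21, with a log2 ratio of −2.34 from P4 to P21. It was thus lower at P21 in this background as well. The part of such background in the neuron values was not tested.

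The Grm3 difference was seen within nearly all neuron subtypes. All 11 excitatory subtypes with at least 20 nuclei at both stages were lower at P21 than at E19, 10 of them beyond counting error, with a median log2 ratio of −1.46. Of 12 inhibitory subtypes 11 were lower, 8 beyond counting error, with a median of −0.59. IN3 was the exception, at 209, 350.2, 427 and 501 CPM from E19 to P21 (log2 ratio 1.25), and it was also the inhibitory subtype in which Grm5 reached its highest level. IN7 held the most Grm3 at E19, P4 and P8 (2902, 1984 and 1767 CPM) and had 569 CPM at P21, below the 606 CPM of IN6 by less than counting error. IN5 went from 1687 to 447 CPM. EN13 was the highest excitatory subtype in 4 of 4 libraries, from 911 CPM at E19 to 296 at P21.

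**Figure D2:**
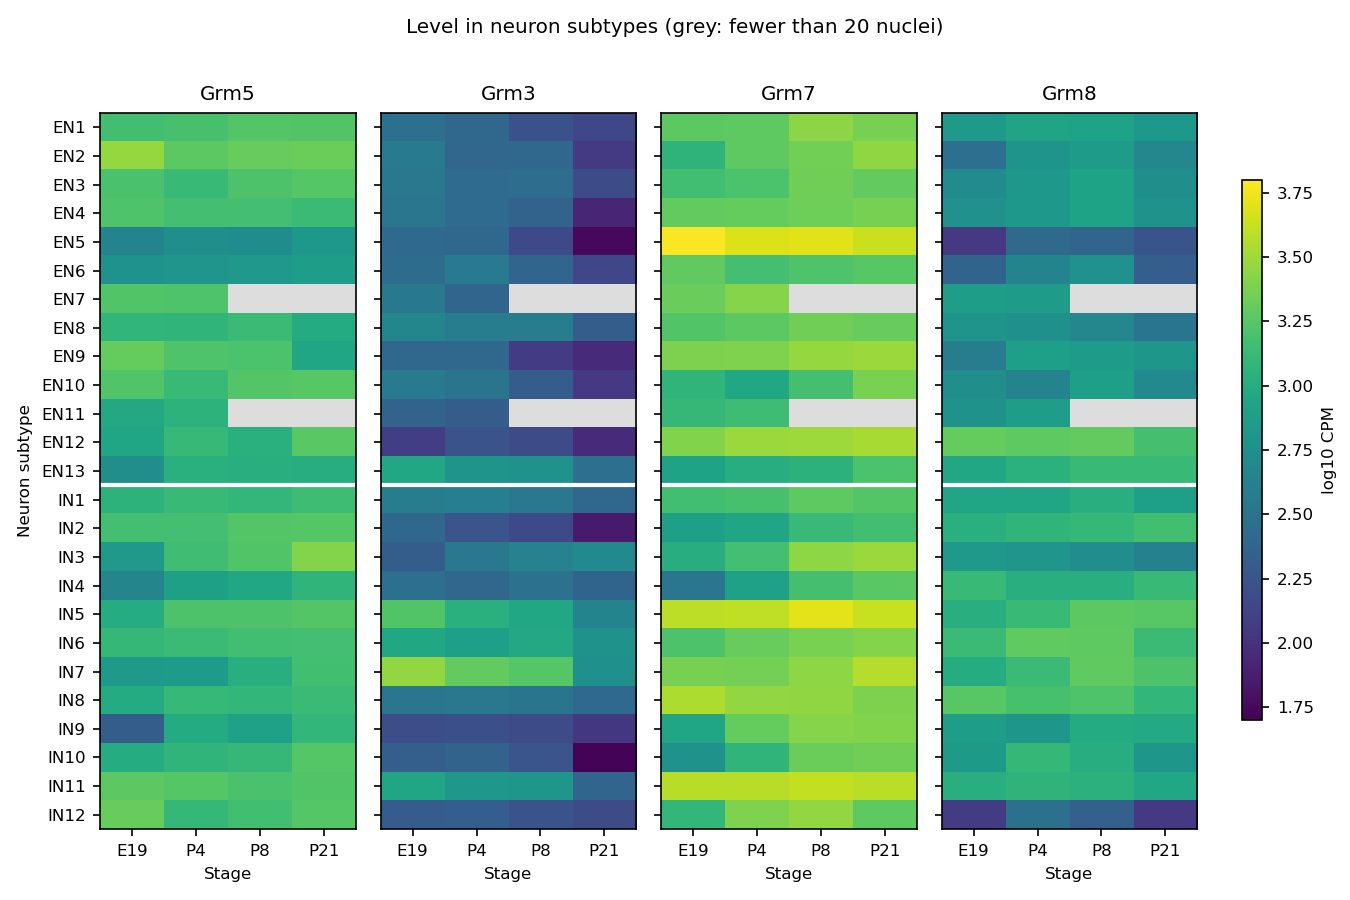
Level in 13 excitatory and 12 inhibitory subtypes (rows) at 4 stages (columns) as log10 CPM; grey marks subtype and stage pairs with fewer than 20 nuclei, and the white line separates the classes. Rows EN5, IN5 and IN11 are bright for Grm7 at every stage, EN5 and IN12 are dark for Grm8, and rows IN5 and IN7 lose brightness for Grm3 at P21.

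The group III receptors differed in the class that held more of them. Grm4, a presynaptic receptor, was 72.8, 86.3, 101.5 and 80.9 CPM in excitatory neurons from E19 to P21 and 47.5, 57.8, 59.5 and 56.1 CPM in inhibitory neurons. The excitatory value was the higher in 4 of 4 libraries. Thinned shares of nuclei with a Grm4 UMI were 13.9% to 19.3% of excitatory and 8.29% to 12.2% of inhibitory neurons, against 0 to 4.29% of vascular leptomeningeal nuclei. Grm4 had overlapping intervals between all neighbours in the order of subtypes at every stage. EN13, EN7, EN10 and EN6 were the highest at E19, P4, P8 and P21 (139, 114, 142 and 134 CPM). IN12 was the lowest at E19, P8 and P21 (0, 34.4 and 16.7 CPM), and EN11 at P4 (44.8 CPM).

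Grm7, a low-affinity receptor of presynaptic active zones, was higher after birth in both neuron classes. Excitatory neurons held 1767, 2085, 2593 and 2503 CPM from E19 to P21. The inhibitory values were 1575, 1789.9, 2599 and 2548 CPM, and in both classes the E19 and P4 libraries were the low ones. The log2 ratio from E19 to P21 was 0.50 in excitatory neurons (0.48 to 0.53) and 0.69 in inhibitory neurons (0.66 to 0.73). Within subtypes 9 of 11 excitatory and 11 of 12 inhibitory subtypes were higher at P21.

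The leading subtypes for Grm7 were the same at every stage. EN5 and IN5 held the first 2 places in 4 of 4 libraries and IN11 the third. EN5 was at 6079, 4852, 5099 and 4297 CPM from E19 to P21, and IN5 at 3887, 3981, 5218 and 4172 CPM. At P8 and P21 the intervals of EN5 and IN5 overlapped. IN4 was the lowest subtype at E19 and P4 and had the largest ratio, from 337 CPM at E19 to 1844 at P21 (log2 ratio 2.44). The fold between the highest and the lowest subtype was 18.1 at E19 and 6.06 at P4, both EN5 over IN4 among 25 subtypes. Among 23 subtypes it was 4.68 at P8 (IN5 over EN13) and 2.96 at P21 (EN5 over IN2), so the pair compared was not fixed.

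Grm8, a high-affinity presynaptic receptor, was higher in inhibitory than in excitatory neurons in every library. Its level was 574, 758, 799 and 615 CPM in excitatory neurons and 1010.5, 1071, 1236 and 1093 CPM in inhibitory neurons, highest at P8 in both. From P8 to P21 it was lower in 11 of 11 excitatory and 10 of 12 inhibitory subtypes, and from E19 to P21 the class ratios were 0.099 and 0.11. Within subtypes 6 of 11 excitatory and 5 of 12 inhibitory subtypes were higher at P21 than at E19, with medians of 0.072 and −0.043. EN12 stood out among excitatory subtypes at 2007, 1913, 1962 and 1520.0 CPM. EN5 was at 111, 265, 244 and 177 CPM and IN12 at 119, 298, 219.9 and 112 CPM, the lowest 2 subtypes at E19, P4, P8 and P21. EN5 therefore combined the first or second highest Grm7 with the first or second lowest Grm5 and Grm8 at each stage.

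**Figure D3:**
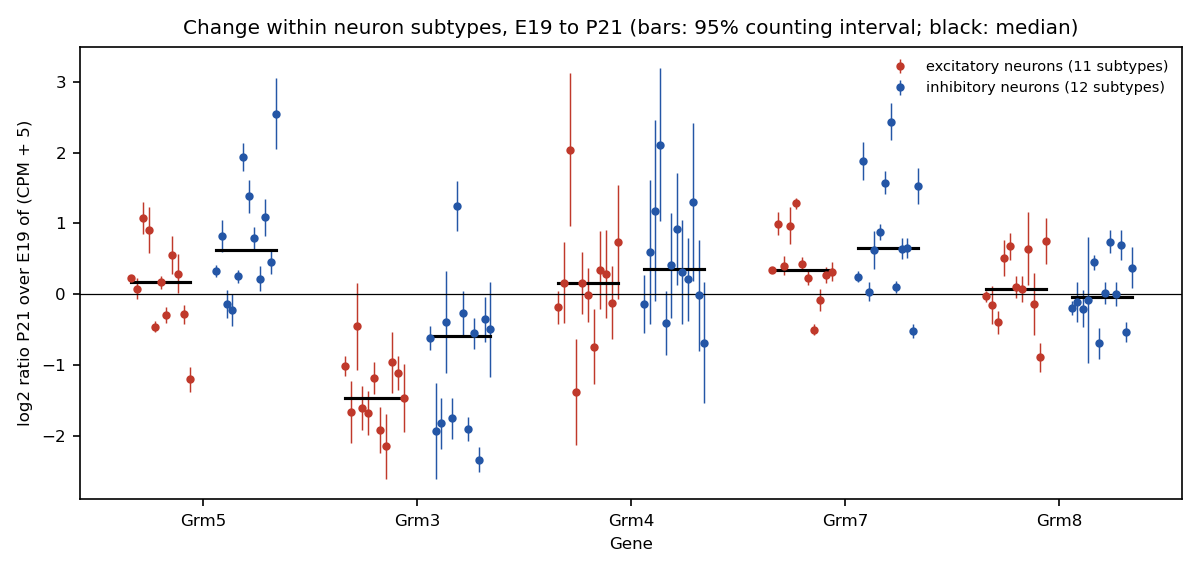
The log2 ratio of P21 over E19 within each neuron subtype with at least 20 nuclei at both stages (11 excitatory, 12 inhibitory), per gene; points are subtypes, bars 95% counting intervals and black lines medians. Every excitatory Grm3 point lies below 0, and IN3 is the single inhibitory Grm3 point above 0, at 1.25.

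With 5 members measured, counts past a 2-fold difference between stages in neurons could not be told apart from the shares over all genes. Of these members with at least 20 CPM (all but Grm2), 1 was past 2-fold from E19 to P21 in excitatory neurons. Over all 7650 genes 16% were. This was Grm3, and 10.7% of genes were past 2-fold in its direction. In inhibitory neurons it was 0 of 5 against 17.2% of 7807 genes, and with subtypes weighted alike it was 1, Grm3 at −1.25. Between consecutive stages the count was 0 of 5 in both classes, against 1.17%, 1.19% and 5.35% of genes in excitatory and 1.02%, 0.519% and 5.9% in inhibitory neurons. The median log2 ratio of the 5 members from E19 to P21 was 0.099 in excitatory neurons, with −0.061 over all genes, and 0.22 in inhibitory neurons, with −0.037 over all genes. Fewer transcribing nuclei and less RNA per nucleus cannot be told apart in such sums.

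The classes share their libraries, so the 4 libraries served as replicates for the contrast of inhibitory with excitatory neurons, with library as a term. The log2 inhibitory to excitatory ratios of Grm3 were 0.68, 0.79, 1.12 and 1.19 in the E19, P4, P8 and P21 libraries. Those of Grm8 were 0.81, 0.496, 0.63 and 0.82. Both genes were higher in inhibitory neurons in 4 of 4 libraries. For Grm3 this was uneven over subtypes: at E19 IN7, IN5, IN6 and IN11 held 2902, 1687, 892 and 880 CPM. The other inhibitory subtypes ran from 156 (IN9) to 386 CPM (IN1) and excitatory subtypes from 124 (EN12) to 911 CPM (EN13). The class ratio of Grm3 therefore does not describe every inhibitory subtype. In edgeR's quasi-likelihood test with Benjamini-Hochberg adjustment, the log2 fold change of Grm3 was 0.92 (SE 0.090, adjusted p = 0.000411) and that of Grm8 was 0.65 (SE 0.070, adjusted p = 0.000663). Grm4 was lower in inhibitory neurons in 4 of 4 libraries, at −0.67 (SE 0.053, adjusted p = 0.000141).

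Grm2 was also lower in inhibitory neurons in 4 of 4 libraries, at −0.85 (SE 0.18, edgeR adjusted p = 0.0148), but its edgeR adjusted p was 0.0615 without the P8 library, and without the P4 library its fold change was −1.02 (adjusted p = 0.0240). The library ratios of Grm5 ran from −0.58 at E19 and −0.15 at P4 to 0.061 at P8 and 0.28 at P21, and its edgeR fold change of −0.14 (SE 0.12, adjusted p = 0.477) did not pass. Without the E19 library that fold change was 0.0031. Grm7 did not pass either, at −0.14 (SE 0.066, adjusted p = 0.208). In all, 4 of 6 members passed an adjusted p of 0.05, where 17.2% of 14799 genes did, and 0 of 6 also reached a 2-fold difference, where 3.66% did. Without P4, 1 member (Grm2) reached both. DESeq2 and an unadjusted p of 0.05 in edgeR also gave 4 of 6.

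**Figure D4:**
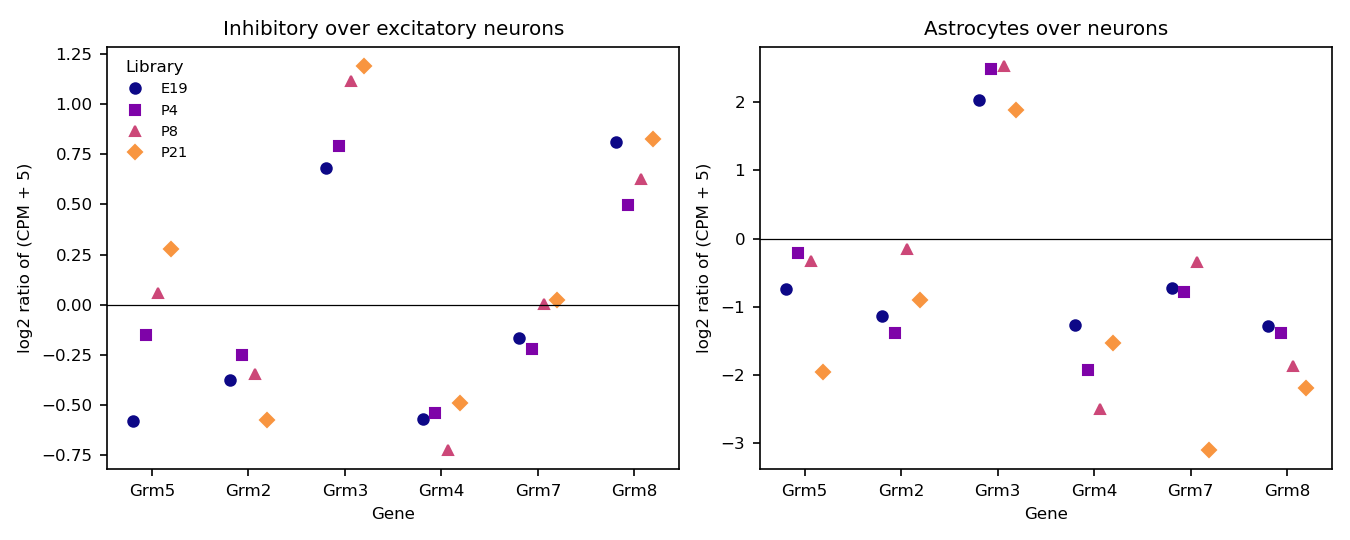
The log2 ratio of (CPM + 5) between classes in each of the 4 libraries, for inhibitory over excitatory neurons (left) and astrocytes over neurons (right); a point is 1 library and the line at 0 is equality. Grm5 crosses 0 on the left, from −0.58 at E19 to 0.28 at P21, and Grm7 on the right reaches −3.10 at P21 against −0.35 at P8.

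Astrocytes differed from neurons in all 6 members. Grm3 in astrocytes of the successive libraries was 1624, 1869.6, 2141 and 801 CPM, above neurons in 4 of 4 libraries, and its log2 fold change was 2.04 (SE 0.17, edgeR adjusted p = 9.48e-05). Grm8 (294, 322, 268 and 177 CPM) and Grm4 (23.8, 16.8, 10.5 and 20.9 CPM) were below neurons in 4 of 4 libraries. Their fold changes were −1.92 (SE 0.19, edgeR adjusted p = 0.000206) and −2.26 (SE 0.26, adjusted p = 0.000419). The Grm4 share of thinned astrocytes was 2.15% to 4.88%. Its intervals overlapped those of vascular leptomeningeal nuclei (0 to 4.29%) in every library, so thinned shares did not separate the 2. In summed counts at P21, Grm4 was at 23.6 CPM in protoplasmic astrocytes (16.2 to 33.1). Vascular leptomeningeal cells held 1.09 CPM (0.028 to 6.07), below that interval. At E19, P4 and P8 the intervals of these summed counts overlapped.

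The other members were lower in astrocytes with less certainty. Grm5 was at −1.02 (SE 0.28, edgeR adjusted p = 0.0237), Grm7 at −1.41 (SE 0.44, adjusted p = 0.0346) and Grm2 at −2.92 (SE 0.88, adjusted p = 0.0315), each with the lower value in astrocytes in 4 of 4 libraries. The Grm2 fold depends on the prior count, since 3 of 4 astrocyte sums were 0. All 6 members passed the adjusted p and the 2-fold criterion, where 30.1% of 14787 genes did and 45% passed the adjusted p. DESeq2 also gave 6 of 6. Without the E19 library Grm5, Grm7 and Grm2 had adjusted p of 0.0649, 0.0633 and 0.0841. Without P8 the Grm5 and Grm7 values were 0.0519 and 0.0512, and without P4 those of Grm7 and Grm2 were 0.0756 and 0.100. Without P21, where the Grm5 and Grm7 ratios were −1.96 and −3.10, the fold changes were −0.68 and −0.87, short of 2-fold. Grm5 was also short of it with thinned nuclei (−0.95) and without astrocytes that held a neuron marker UMI (−0.96).

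Grm7, Grm5 and Grm3 were all lower in astrocytes at P21 than at P8. Grm7 was at 1028, 1157, 2036 and 289.7 CPM from E19 to P21, Grm5 at 878, 1221, 1105 and 395 CPM, and Grm3 peaked at P8 as above. From P8 to P21 the log2 ratios were −2.79 for Grm7 (−2.93 to −2.65), −1.47 for Grm5 (−1.61 to −1.34) and −1.41 for Grm3 (−1.51 to −1.32). Thus 3 of 5 members with at least 20 CPM were past 2-fold, where 12.3% of 7908 genes were in either direction and 7.36% in this one. From E19 to P21 the same 3 were past 2-fold (−1.81, −1.14 and −1.02), against 26.8% of 8577 genes in either direction and 18.2% in this one, but with median-of-ratios scaling it was 1. That scaling moved the median of all genes from −0.24 to 0.061 in that comparison.

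In thinned nuclei, 94.8% of P8 astrocytes and 42.5% of P21 astrocytes had a Grm7 UMI, and 98.3% and 71.8% before thinning. Vascular leptomeningeal nuclei gave 32.9% and 39.6% after thinning, so the P21 astrocyte share (36.7% to 48.5%) could not be separated from this background. In summed counts the background itself was higher with age, at 105, 144, 202 and 411 CPM from E19 to P21. Its log2 ratio from P8 to P21 was 1.01. Median depths at P21 were 5525 UMIs in astrocytes and 6228 in vascular leptomeningeal nuclei. Of the 377 Grm7 UMIs of those vascular nuclei, 101 came from 1 nucleus. Those vascular nuclei also held the astrocyte marker list at 1755 to 3883 CPM. Other markers moved with age in astrocytes: the 4 oligodendrocyte markers summed to 31.7 to 46.0 CPM from E19 to P8 and 725 CPM at P21, the 3 precursor markers to 188 to 214 CPM and then 41.2 CPM, and the 5 astrocyte markers to 3259.6 CPM at E19 and 7559.8 CPM at P21. Epithelial markers summed to 687 CPM in the P4 library and at most 9.84 CPM in the others. Their part in the result was not tested. In astrocytes excitatory neuron markers summed to 25.8 to 66.3 CPM and inhibitory neuron markers to 65.2 to 98.3 CPM. Without astrocytes holding a neuron marker UMI the P8 to P21 ratios were −2.77, −1.47 and −1.47 for Grm7, Grm5 and Grm3.

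The astrocyte subtypes differed from each other. Protoplasmic astrocytes, the grey-matter form, held Grm3 at 1885, 2366, 2540.2 and 899.8 CPM from E19 to P21, and fibrous astrocytes, the white-matter form, held it at 614, 146, 291 and 189.6 CPM. Grm5 was 1066, 1499.7, 1306 and 429 CPM in protoplasmic and 152, 253, 177 and 185 CPM in fibrous astrocytes. For both genes the protoplasmic value was the higher in 4 of 4 libraries. Grm7 did not keep 1 order: it was 904, 1297, 2017 and 218 CPM in protoplasmic and 1506, 669, 2125 and 732 CPM in fibrous astrocytes. At P21 Grm7 was detected in 36.2% of thinned protoplasmic nuclei (30.02% to 42.7%) and 69.1% of 55 fibrous nuclei (55.2% to 80.9%).

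**Figure D5:**
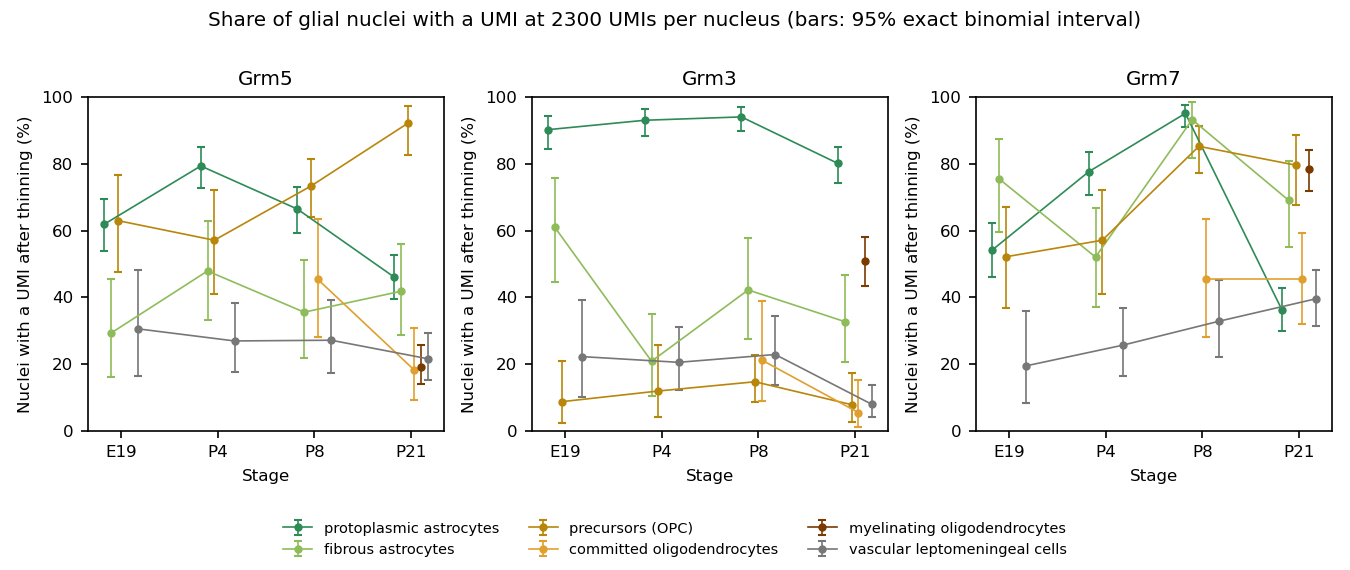
Share of nuclei with at least 1 UMI after thinning to 2300 UMIs per nucleus, for glial subtypes and vascular leptomeningeal cells with at least 20 nuclei; bars are 95% exact binomial intervals. Precursors end at 92.2% for Grm5, myelinating oligodendrocytes at 50.8% for Grm3, and protoplasmic astrocytes drop from 95.2% to 36.2% for Grm7 between P8 and P21.

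In the oligodendrocyte lineage Grm5 was highest in precursors and Grm3 in myelinating oligodendrocytes. Precursor cells (OPC) held Grm5 at 529.9, 499, 843 and 1189 CPM from E19 to P21, in 42 to 109 nuclei, and 92.2% of thinned P21 precursors had a UMI against 21.6% of vascular leptomeningeal nuclei. Committed and myelinating oligodendrocytes at P21 held 121 and 88.0 CPM, and the myelinating share of 19.3% did not exceed that background. Grm3 was at 46.7 to 83.2 CPM in precursors, at 20.6 CPM in committed oligodendrocytes of P21 (9.87 to 37.9, overlapping P21 precursors) and at 431 CPM in the 187 myelinating oligodendrocytes of P21, of which 50.8% had a UMI after thinning against 7.91% of background. Grm7 was at 745 CPM in precursors, 839.9 CPM in committed and 1029 CPM in myelinating oligodendrocytes at P21. Class sums hide this: from P8 to P21 the lineage as a whole had log2 ratios of 2.0 for Grm3, −1.44 for Grm5 and −1.53 for Grm4, 3 of 5 members past 2-fold against 31% of 7920 genes. With the 2 subtypes present at both stages weighted alike, Grm3 was at −1.04 and Grm5 at 0.32, and 1 member was past 2-fold.

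Grm3 was also high in the small endothelial class, at 991, 803, 587 and 895 CPM in 12 to 22 nuclei per library. At P4, the library with most of them, 15 of 22 endothelial nuclei had a Grm3 UMI and 1 nucleus held 24 of the 184 UMIs. Their 5 astrocyte markers summed to 310 CPM there, against 3313 CPM in astrocytes. Dividing cells held Grm3 at 1447, 962 and 625 CPM at E19, P4 and P8, and Grm5 at 1315, 785 and 751 CPM.

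Receptors of different groups were detected together in many nuclei. After thinning, a UMI of all 3 groups was found in 33.3%, 36.9%, 30.2% and 18.9% of excitatory neurons from E19 to P21, and in 32.5%, 40.9%, 46.3% and 37.8% of inhibitory neurons. In astrocytes the shares were 30.6%, 54.3%, 53.6% and 16.7%, and in vascular leptomeningeal nuclei 1.44% to 3.85% from P4 to P21. Without thinning they were 71.2%, 80.8%, 79.6% and 71.4% in excitatory neurons. Among thinned P21 excitatory neurons 22.3% had a group II UMI, 86.5% a group I UMI and 98.7% a group III UMI. The shares with all 3 groups were not compared with those from independent detection of each group. They are therefore not read as coexpression beyond that.

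Genes around these receptors were described from a list of 44 names, of which 42 were in the matrix: receptors, G proteins, effectors, binding partners and regulators. From E19 to P21 in excitatory neurons 5 of 34 genes with at least 20 CPM were past 2-fold upward and 1 downward, where 5.35% of all genes were past it upward and 10.7% downward. The 4 largest were Itpr1, the inositol trisphosphate receptor through which group I signals release calcium (50.3 to 236 CPM, log2 ratio 2.12), the adenylate cyclase Adcy2 (163 to 467 CPM, 1.49), and the Gi/o-gated potassium channel subunits Kcnj9 (8.1 to 31.2 CPM, 1.47) and Kcnj3 (151 to 326 CPM, 1.09). The G protein Gnai2 was lower (53.4 to 22.0 CPM, −1.11).

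In inhibitory neurons 4 of 33 list genes were past 2-fold upward and 0 downward, against 5.83% and 11.3% of all genes. These were Itpr1 (64.4 to 299 CPM, 2.13), Kcnj9 (6.5 to 44.2 CPM, 2.09), Kcnj3 (84.0 to 270.2 CPM, 1.63) and the cyclase Adcy8 (259 to 536 CPM, 1.03). With subtypes weighted alike the Adcy8 value was 0.38. The median log2 ratio of the list was 0.10 in excitatory and 0.039 in inhibitory neurons. In astrocytes 6 of 31 list genes were past 2-fold upward from E19 to P21 and 7 downward, with a list median of −0.34, against 8.6% and 18.2% of all genes. Among them the phospholipase Plcb1, chosen after its values were seen, went from 243 CPM at E19 to 3229 CPM at P21 (log2 ratio 3.71, 3.52 to 3.89).

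Between neuron classes, 0 of 39 tested list genes were higher and 2 lower in inhibitory neurons at an adjusted p under 0.05 and 2-fold, against 1.34% and 2.32% of all genes. The lower genes were Elfn1, a synaptic adhesion protein that binds group III receptors (log2 fold change −1.61, SE 0.20, edgeR adjusted p = 0.00146), and the channel subunit Kcnj6 (−1.26, SE 0.075, adjusted p = 2.89e-05). At the adjusted p alone 3 were higher and 11 lower, against 7.72% and 9.48% of all genes. Between astrocytes and neurons 4 were higher and 13 lower, against 14.4% and 15.7% of all genes, the higher being Plcb3 (3.70), Homer3 (3.06), Grk3 (1.92) and Gnai2 (1.56), with edgeR adjusted p from 0.000214 to 0.000491. Homer3 is a scaffold that binds group I receptors, and Grk3 a kinase that desensitises receptors.

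Over 89 subtype and stage profiles of at least 40 nuclei, the genes most like each member by Pearson r of log2(CPM + 5), among 7327 genes, were as follows. For Grm5 they were Fgf12 (0.84), Mcf2l (0.83) and Slc9a7 (0.83), and for Grm3 Clcn5 (0.69), Dlg5 (0.67) and Acaca (0.58). For Grm4 they included Slc12a5 (0.87) and Shank3 (0.86), and for Grm7 Rims2 (0.72), Grin2a (0.72) and Pacsin1 (0.72). For Grm8 they were Tenm3 (0.81), Tenm4 (0.80) and Frmpd3 (0.79). Grm2 reached 20 CPM in 1 profile and was not ranked. The profiles share 4 libraries and mix neurons with glia, and over neuron profiles alone the pairs named here ran from −0.021 (Grm5 with Mcf2l) to 0.57 (Grm3 with Clcn5). Among the members themselves the highest r was that of Grm5 with Grm4, at 0.69.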

How the data were processed

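Single-nucleus RNA was measured with 10x Genomics 3′ v3 chemistry in 4 libraries, 1 per stage. Per the labels, nuclei were purified through sucrose, and the authors processed reads with Cell Ranger 3.0.2 against a pre-mRNA reference built on mm10, so intronic reads were counted. The deposited matrix holds raw UMI counts, not normalized. The authors' deposited table gives stage, class, subtype, UMI and gene counts and the percent of mitochondrial and ribosomal protein UMIs (mitochondrial at most 5). Totals recomputed from the matrix equalled that table in 9724 of 9724 nuclei. The filtering of nuclei, any doublet removal and the naming of classes are not described in the sources used here, and no doublet caller was run. The design text abbreviates embryonic day 19 differently from the sample titles, whose E19 was used. Of the table's columns 7 were not used (map positions, cluster numbers and reference labels).

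Members and lists were chosen with earlier results of these data known. UMIs were summed per library and class or subtype and scaled to CPM, with exact Poisson intervals; shares have Clopper-Pearson intervals, all at 95% and for counting error only. Nuclei were thinned to 2300 UMIs, which left out none. Stage differences are log2 ratios with 5 CPM added, which understates changes of low genes, at 20 CPM or more in the higher stage, with no test. Subtypes need 20 nuclei per stage. Class contrasts used edgeR 4.0.16 (quasi-likelihood, TMM, library as a term, genes kept by filterByExpr) with Benjamini-Hochberg adjustment over all genes, called at adjusted p under 0.05 and log2 fold change of at least 1; the p-values measure spread between these libraries, which differ in stage. DESeq2 1.42.0 was the alternative. The script was tested on simulated data. Named were all members, the 3 most similar genes of each (mean of 20 CPM, without mitochondrial, ribosomal protein and Y-linked genes and Xist), and up to 4 list genes per direction and neuron class past 2-fold from E19 to P21; class calls of 5 or fewer were named in addition. Some genes these rules select are not reported here. Coordinates come from GENCODE M21, in which 30934 gene IDs (99.6%) were found.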

Additional observations from a re-analysis of the deposited data

Results flagged for a closer look

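Between E19 and P21 the class sums of some members went in opposite directions in different classes, each beyond its counting interval. Each stage is 1 library, so the difference between classes was not tested. The log2 ratio of Grm5 was −0.23 in excitatory neurons and 0.62 in inhibitory neurons, and −1.14 in astrocytes. With subtypes weighted alike the excitatory value was −0.012, and 7 of 11 excitatory subtypes were higher at P21, with a median of 0.17. That of Grm7 was 0.50 in excitatory and 0.69 in inhibitory neurons and −1.81 in astrocytes. That of Grm8 was 0.099 in excitatory and 0.11 in inhibitory neurons and −0.72 in astrocytes. Within subtypes the Grm8 medians were 0.072 and −0.043, and 5 of 11 excitatory and 7 of 12 inhibitory subtypes were lower at P21.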

How the results depend on the processing

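Of the counts over members, 3 moved with the treatment of the nuclei. With subtypes weighted alike, 1 member (Grm3) in place of 0 was past 2-fold in inhibitory neurons from E19 to P21, and 1 in place of 3 in the oligodendrocyte lineage from P8 to P21, where Grm5 was at 0.32 and Grm3 at −1.04; the myelinating subtype has too few P8 nuclei to enter. With median-of-ratios scaling 1 in place of 3 was past 2-fold in astrocytes from E19 to P21. For inhibitory against excitatory neurons, DESeq2 gave 1654 genes at adjusted p under 0.05 in place of 2545, and thinned nuclei gave 1447, with 343 genes also past 2-fold in place of 542. Leaving out each library in turn gave 1232 to 2328 and 400 to 545 genes, 0 to 1 members past both criteria and 3 to 4 at the adjusted p, and Grm5 between −0.26 and 0.0031, above 0 without E19. The adjusted p alone gave 1691 genes without E19, 1559 without P4 and 1232 without P8. Grm2 is the 1 member that passed both criteria, without P4. For astrocytes against neurons leaving out each library gave 3755 to 4461 genes past both criteria, 4667 to 6780 at the adjusted p, 3 to 4 members past both and 3 to 6 at the adjusted p, the lowest without E19. Of the single log2 fold changes of members under all alternatives, 102 kept direction and side of the adjusted p threshold, 10 lost it and 1 changed sign. By both criteria 12 calls were lost and 1 gained. Of the stage log2 ratios of members, 481 moved by less than their counting error, 141 moved by more, and 2 that were past 2-fold changed sign. The 10 losses of the adjusted p were Grm2 in both contrasts (also with thinned nuclei for the neuron classes, adjusted p = 0.212, and without astrocytes holding a neuron marker UMI, adjusted p = 0.0632, both edgeR) and Grm5 and Grm7 in astrocytes. Alternatives without nuclei over 3 times their class median UMIs, or without astrocytes holding a neuron marker UMI, were chosen after seeing the data. Comparisons of stages could not be paired, because each stage is 1 library. Both class contrasts compared classes within the same libraries, with library as a term. Depth limits Grm2 and Grm4 by subtype and all glial classes under 50 nuclei.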
